A study of Mus musculus with 6 samples.

Results

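The genes described here are 52 genes of the cell cycle and DNA replication, chosen by name for their known roles and found by Ensembl ID among the 56262 genes of the count table. The choice was made with earlier results of these data known. RNA was sequenced from whole leg muscle of mouse fetuses at embryonic day 18.5, from 3 wild-type samples (WT) and 3 samples with a knockout of *SYISL* (KO), a long noncoding RNA whose locus overlaps a *Synpo2* intron. Fetuses of each genotype came from matings within that genotype, so the genotype of the fetus, that of the dam and the litter cannot be told apart. The sources used here give neither the strain, the sex of the fetuses nor whether samples of one genotype shared a litter, so p-values measure only the spread between these samples.

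A cell that divides first passes a decision point in the gap phase G1, where cyclins of the D and E types and their kinases inactivate the pocket proteins of the retinoblastoma family and so release transcription factors of the E2F family. Helicases are then loaded onto replication origins, DNA is copied in S phase, and cyclin B with Cdk1 starts mitosis, which the Aurora and Polo kinases, the spindle checkpoint and the anaphase-promoting complex (APC/C) carry through. In developing muscle, myoblasts leave this cycle before they fuse, muscle fibres are post-mitotic, and the dividing cells of a leg include myogenic progenitors and also fibroblasts, endothelium, cartilage, blood and skin. Because a leg holds all of these, a lower level in bulk RNA can come from fewer cells of a type or from less RNA per cell. As levels are relative to the whole library, it can also come from more RNA of other cells. The counts cannot tell these apart.

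The 5 promoters printed here belong to 4 of the members with the largest falls and to the member with the largest rise. Each window runs from 250 bases before to 50 bases after the start of a RefSeq transcript on GRCm38.p6, the assembly that mm10 stands for, and is written 5′ to 3′ on the strand of the gene. The windows are *Ccne1* (chr7:38107441-38107740, minus strand), *Mcm5* (chr8:75109259-75109558, plus strand), *Aurka* (chr2:172370521-172370820, minus strand), *Cdc20* (chr4:118437294-118437593, minus strand) and *Cdkn1b* (chr6:134920151-134920450, plus strand). Capitals mark the letters searched for on both strands, which are the CCAAT box CCAAT, the cell cycle homology region (CHR) TTTGAA, and the E2F letters TTTCCCGC or TTTGGCGC. A promoter counts once for a motif however often it holds it.
Ccne1: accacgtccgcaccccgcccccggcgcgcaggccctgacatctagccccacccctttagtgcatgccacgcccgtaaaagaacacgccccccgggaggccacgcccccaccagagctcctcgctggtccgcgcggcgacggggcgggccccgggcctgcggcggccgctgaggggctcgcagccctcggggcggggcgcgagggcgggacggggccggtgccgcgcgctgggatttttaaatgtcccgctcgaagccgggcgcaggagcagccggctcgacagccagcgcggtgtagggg
Mcm5: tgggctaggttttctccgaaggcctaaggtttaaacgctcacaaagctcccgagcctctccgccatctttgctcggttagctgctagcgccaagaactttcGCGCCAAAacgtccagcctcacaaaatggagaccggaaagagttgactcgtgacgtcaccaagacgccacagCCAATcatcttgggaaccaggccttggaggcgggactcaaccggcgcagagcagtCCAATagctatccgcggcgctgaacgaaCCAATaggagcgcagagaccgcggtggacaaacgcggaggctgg
Aurka: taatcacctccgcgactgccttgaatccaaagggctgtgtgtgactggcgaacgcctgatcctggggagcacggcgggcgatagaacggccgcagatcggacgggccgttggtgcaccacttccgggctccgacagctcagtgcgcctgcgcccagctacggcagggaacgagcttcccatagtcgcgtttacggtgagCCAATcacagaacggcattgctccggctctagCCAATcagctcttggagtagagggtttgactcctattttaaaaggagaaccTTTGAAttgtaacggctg
Cdc20: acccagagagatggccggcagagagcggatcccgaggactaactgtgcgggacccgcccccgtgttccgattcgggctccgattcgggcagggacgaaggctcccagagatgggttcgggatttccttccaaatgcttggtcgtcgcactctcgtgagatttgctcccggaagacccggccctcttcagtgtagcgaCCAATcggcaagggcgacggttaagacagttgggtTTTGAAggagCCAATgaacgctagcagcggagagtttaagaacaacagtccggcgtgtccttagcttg
Cdkn1b: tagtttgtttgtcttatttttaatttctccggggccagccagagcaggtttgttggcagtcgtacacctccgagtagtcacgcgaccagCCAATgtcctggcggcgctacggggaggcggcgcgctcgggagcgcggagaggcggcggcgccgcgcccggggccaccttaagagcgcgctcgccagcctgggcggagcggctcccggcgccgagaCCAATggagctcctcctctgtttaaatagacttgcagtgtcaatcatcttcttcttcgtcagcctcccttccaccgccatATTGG
Motifs of these kinds are known from promoters of genes that are repressed in resting cells and switched on in dividing ones. The printed window of *Mcm5* holds 3 CCAAT letters and 1 E2F match on the opposite strand. In *Aurka* and *Cdc20* there are 2 CCAAT matches and 1 CHR match each, and in *Cdkn1b* 3 CCAAT matches. No letters searched for are in the *Ccne1* window. Of the 52 members, 41 had a promoter in the RefSeq table, in 45 windows. CCAAT was in 29 of the 45 windows (64.4%) and in 37.4% of all 32851 promoters of this length. The CHR letters were in 14 windows (31.1%) against 17.9% of all promoters, and the E2F letters in 8 (17.8%) against 1.56%. These matches are descriptions of letters, and no binding was measured.

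The 6 samples held 82054811 to 102233181 counts each, and 22071 genes had enough counts to be tested. *Synpo2*, the host gene of *SYISL*, had 10812 to 14672 counts in WT and 18054 to 22270 in KO, and the 4 genes annotated inside it had at most 2 counts in any sample. No entry of that annotation is *SYISL* itself, and these counts do not show the deletion. All 52 members passed the filter on low counts, with at least 967 counts in every sample (*Gmnn*) and up to 37373 (*Mki67*). Levels are given as CPM, the counts per 1000000 of the library size scaled by TMM (trimmed mean of M values), and levels of different genes are compared only after division by the length of their exons, as CPM per kb.

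Most members were slightly lower in KO. The 52 genes took 0.458%, 0.471% and 0.469% of all counts in WT 1, WT 2 and WT 3 and 0.421%, 0.383% and 0.384% in KO 1, KO 2 and KO 3. Summed over the 52, WT gave 4553 ± 117 CPM and KO 4053 ± 125 CPM (SD over 3 samples each), a ratio of 0.890. Each KO sample was below each WT sample in this sum, and KO 1 was the KO sample nearest to WT.

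None of the 52 members changed by more than 1.5-fold at an adjusted p under 0.05, a rule that 16.7% of all genes tested met (8.31% as higher and 8.39% as lower in KO). The count was 0 with edgeR, with DESeq2 and with limma-voom, and 0 members passed an unadjusted p under 0.05 together with the fold. At an adjusted p under 0.05 alone, 34 members fell and 4 rose, while 14 did not pass (quasi-likelihood test of edgeR, adjusted over all genes by the Benjamini-Hochberg method). In that test 45.0% of all genes passed, 23.1% as lower and 21.9% as higher in KO, so the members that fell, 65.4% of the 52, were a larger share than the background and those that rose, 7.69%, a smaller one. Because the members were chosen with earlier results of these data known, these shares are descriptions only. The log2 fold changes of KO over WT ran from -0.45 to 0.24 with a median of -0.20, where the median over all genes tested was -0.00415. Of the 52 values 44 were negative. The 34 falls ranged from 8.62% to 26.9% with a median of 17.1%, and the 4 rises from 11.8% to 18.3%. In 34 members every KO sample lay below every WT sample, in 5 every KO sample lay above, and in 13 the groups overlapped. Of all genes tested, 55.9% had no overlap, 28.5% with KO wholly below and 27.3% with KO wholly above. The library scaling bears on these counts: with upper-quartile factors 24 members were lower and 6 higher, and with plain library size 41 and 2.

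**Figure D1:**
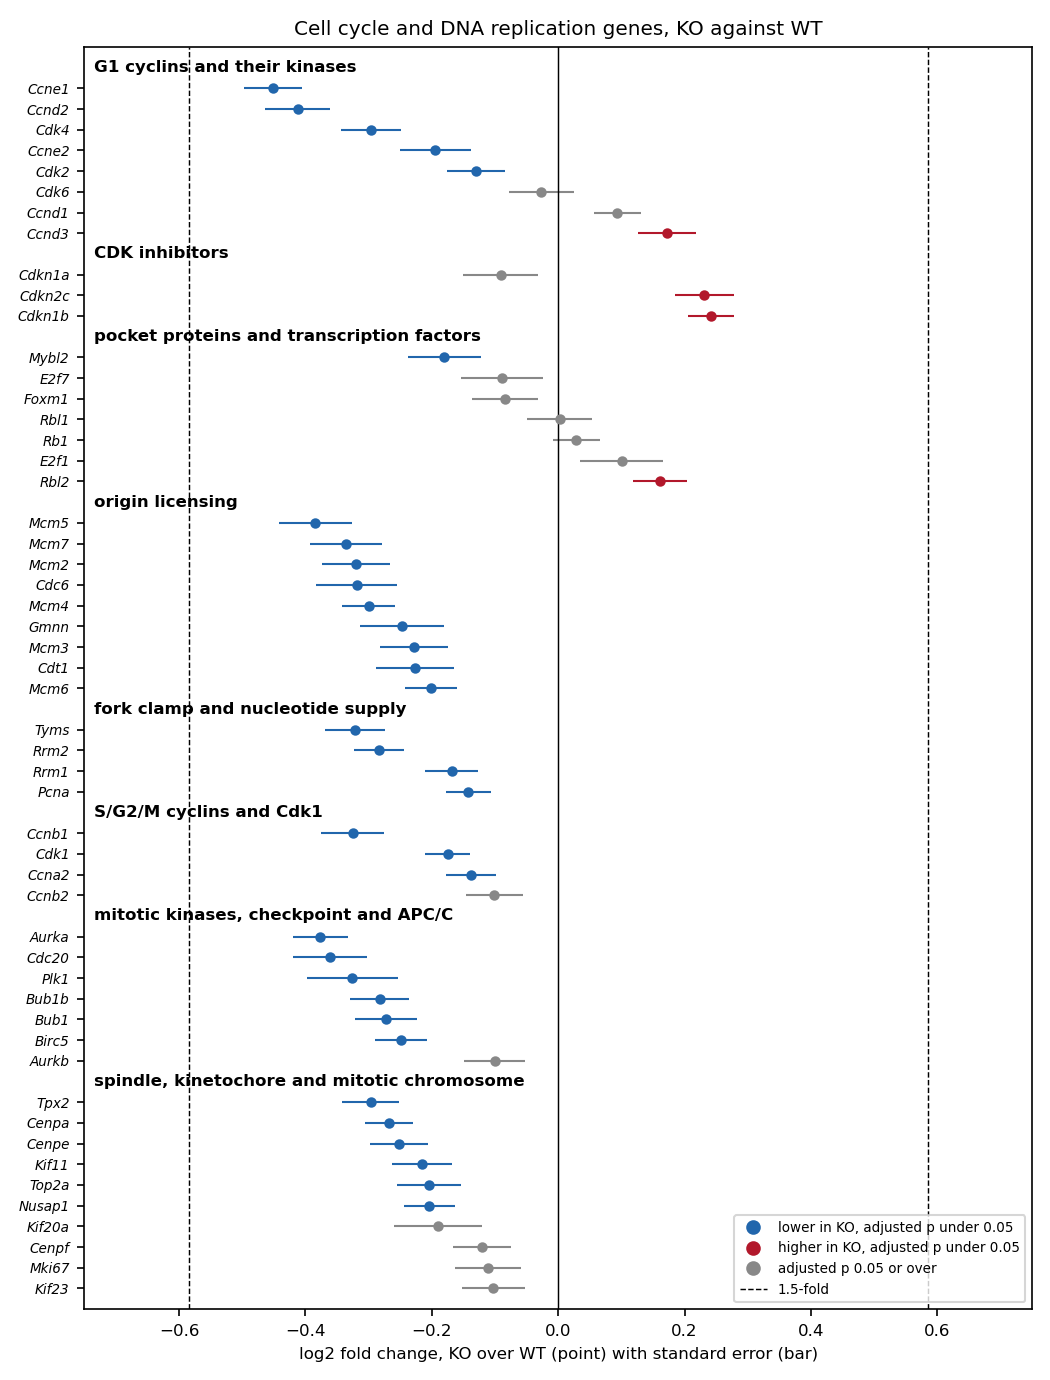
Log2 fold change of KO over WT (x axis) for each of the 52 members (y axis), ordered within 8 role groups, with points for edgeR's estimate, bars for its standard error and colour for the call. The points lie between -0.45 and 0.24, inside the dashed lines at 1.5-fold, and all 9 origin licensing genes are on the lower side.

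The G1 cyclins did not move together. *Ccne1*, the E-type cyclin that activates Cdk2 at the G1 to S transition (chr7:38097984-38107534), was at 48.4, 51.0 and 51.4 CPM in WT and 38.6, 36.7 and 35.0 CPM in KO. The 2 groups were apart, and the fall of 26.9% was the largest among the members (log2 fold change -0.45, SE 0.0465, edgeR adjusted p = 4.68e-05). Its relative *Ccne2* (chr4:11191351-11204779) had 39.1, 36.3 and 36.5 CPM in WT and 34.9, 30.6 and 32.3 CPM in KO, a fall of 12.6% (log2 fold change -0.19, SE 0.0556, edgeR adjusted p = 0.0184) that did not pass in 4 of 14 other settings. KO 1 was close to the lower WT samples for this gene, and the overlap of its exons with those of *Ints8* on the other strand spans 609 bases. The ratio of *Ccne1* to *Ccne2* per length was 1.63, 1.84 and 1.85 in WT and 1.45, 1.57 and 1.42 in KO.

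Among the D-type cyclins, which couple growth signals to Cdk4 and Cdk6, one fell and one rose. *Ccnd2* (chr6:127125162-127152193) was at 228, 228 and 216 CPM in WT and 179, 159 and 166 CPM in KO. All KO samples were below all WT samples, a fall of 24.9% (log2 fold change -0.41, SE 0.0517, edgeR adjusted p = 0.000168). *Ccnd3* (chr17:47505051-47599691), a cyclin known to stay on in differentiating muscle cells, was at 210, 229 and 222 CPM in WT and 241, 253 and 251 CPM in KO. Here all KO samples were above all WT samples, a rise of 12.7% (log2 fold change 0.17, SE 0.0464, edgeR adjusted p = 0.0138), although the rise did not pass under some settings, with an adjusted p of up to 0.0847. *Ccnd1* (chr7:144929931-144939925) had 107, 108 and 104 CPM in WT and 115, 111 and 116 CPM in KO, groups that did not overlap but gave an edgeR adjusted p of 0.0675. Scaled by exon length, *Ccnd2* made up 33.2% ± 0.796 of the summed D-type cyclin level in WT and 25.4% ± 1.29 in KO, *Ccnd3* 35.1% ± 1.17 and 40.2% ± 1.43, and *Ccnd1* 31.7% ± 0.398 and 34.4% ± 0.386 (SD, n = 3 each). Exon bases are shared on the other strand by *Ccnd1* with *LTO1* (1100) and by *Ccnd3* with *Bysl* (361). *Ccnd2* shares 372 with *Gm43126* and 368 with *9330179D12Rik*. How reads there were counted is not known, which limits these shares. The ratio of *Ccnd3* to *Ccnd2* was 0.988, 1.08 and 1.10 in WT and 1.44, 1.70 and 1.62 in KO. Gene pairs for this and the other ratios were chosen with their changes known, so ratios are given as descriptions only. Since both genes are measured in the same library, the ratio does not depend on the library scaling.

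**Figure D2:**
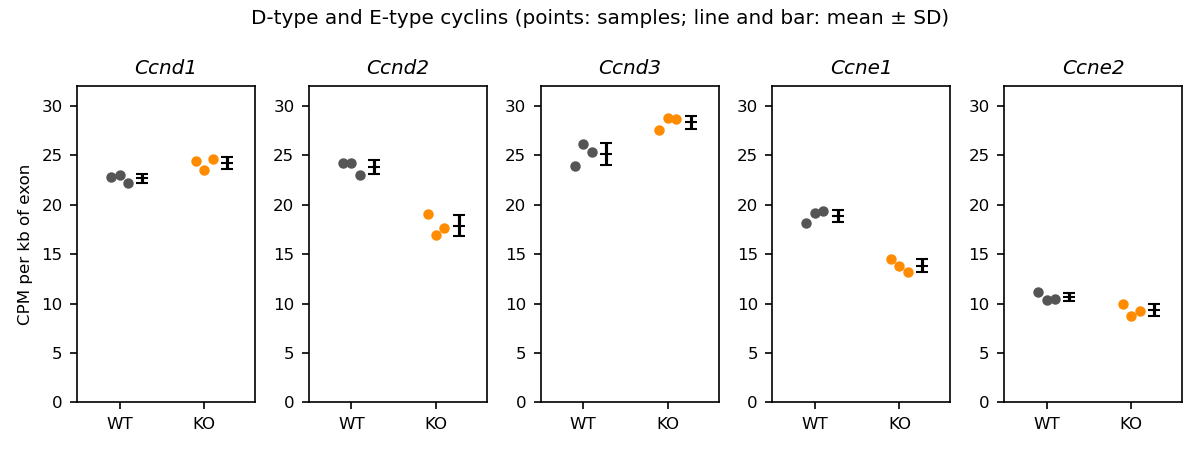
Level of the D-type and E-type cyclins in CPM per kb of exon (y axis, from 0) by genotype (x axis), with a point for each sample and the mean ± SD beside them (n = 3 each). *Ccnd2* and *Ccne1* lie lower in KO without overlap, *Ccnd3* and *Ccnd1* lie higher without overlap, and *Ccne2* lies lower.

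The partner kinases also differed. *Cdk4* (chr10:127063534-127067920) had the highest level of all members at 67.8 CPM per kb averaged over both genotypes. It was at 231, 249 and 249 CPM in WT and 204, 199 and 191 CPM in KO, a fall of 18.6% with no overlap (log2 fold change -0.30, SE 0.0472, edgeR adjusted p = 0.000756), and 641 of its exon bases are shared with *Tspan31* on the other strand. *Cdk6*, at 2.72 CPM per kb the lowest of the members, gave 37.1 to 40.7 CPM in WT and 36.5 to 39.7 CPM in KO, which overlapped. *Cdk2*, the partner of the E-type cyclins, was at 86.9, 95.0 and 91.9 CPM in WT and 86.9, 81.7 and 81.5 CPM in KO. This was the one member to pass as lower whose groups overlapped (log2 fold change -0.13, SE 0.0453, edgeR adjusted p = 0.0417), and its call was lost in 7 of 14 other settings.

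Of the 3 CDK inhibitor genes among the members, 2 rose, where 21.9% of all genes tested passed as higher. Outside the members such genes were mixed: *Cdkn2d* rose, *Cdkn2b* fell, and the estimate for *Cdkn1c* was 15.3% lower in KO. *Cdkn1b* (chr6:134920401-134925513) encodes p27, which binds and holds back cyclin E with Cdk2 in cells that leave the cycle. It was at 53.9, 56.3 and 53.8 CPM in WT and 64.0, 64.1 and 65.9 CPM in KO, and the groups were far apart for their spread. The rise of 18.3% was the largest among the members (log2 fold change 0.24, SE 0.0368, edgeR adjusted p = 0.000567). *Cdkn2c* (chr4:109660876-109667189), which encodes the Cdk4 and Cdk6 inhibitor p18, was at 23.3, 23.4 and 22.3 CPM in WT and 27.5, 26.1 and 27.3 CPM in KO. It rose by 17.4% (log2 fold change 0.23, SE 0.0466, edgeR adjusted p = 0.00303). Both passed as higher under each of the 14 other settings. *Cdkn1a* (chr17:29090976-29100727), which encodes p21, an inhibitor induced both by p53 and in differentiating muscle, had the highest level of the 3 at 64.1 CPM per kb. Its samples overlapped at 223, 249 and 232 CPM in WT and 204, 229 and 228 CPM in KO, and it did not pass (log2 fold change -0.09, SE 0.0593, edgeR adjusted p = 0.248). The ratio of *Cdkn1b* to *Cdk2*, each scaled by length, was 0.819 ± 0.0245 in WT and 1.06 ± 0.0514 in KO (SD, n = 3 each).

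The 7 pocket protein and transcription factor genes had the median log2 fold change nearest to 0 of the 8 role groups, 0.00276, which is the value of *Rbl1* and turned negative for it under some settings. *Rbl2* (chr8:91070057-91123844), which encodes p130, the pocket protein typical of resting cells, was at 28.7, 29.4 and 28.9 CPM in WT and 32.6, 31.3 and 33.4 CPM in KO. The KO samples were all higher (log2 fold change 0.16, SE 0.0429, edgeR adjusted p = 0.0129), although the rise did not pass in 2 of 14 other settings, with an adjusted p of up to 0.151, and 693 of its exon bases are shared with *Aktip* on the other strand. *Mybl2*, the Myb factor that works with the MuvB complex on mitotic genes, was at 22.0, 24.3 and 23.4 CPM in WT and 21.5, 19.7 and 20.3 CPM in KO, a small gap between the groups (log2 fold change -0.18, SE 0.058, edgeR adjusted p = 0.0303), and the call was lost in 6 of 14 other settings. *Foxm1*, which drives genes of G2 and mitosis, had the highest level here with 13.9 CPM per kb, and it did not pass (log2 fold change -0.08, SE 0.0527, edgeR adjusted p = 0.23). The activator *E2f1* gave 0.10, its repressor *E2f7* -0.09, and the pocket protein genes *Rb1* and *Rbl1* 0.03 and 0.00276 on the log2 scale, and none of these passed. Like *Rbl1*, *Rb1* and *Cdk6* changed sign under some settings.

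The 9 members of origin licensing, the loading of the replicative helicase in G1, fell without exception. All 9 passed as lower, by 13.0% to 23.4%, with a median log2 fold change of -0.30 (*Cdt1* and *Gmnn* did not pass in 2 of 14 other settings each), and in each of them every KO sample was below every WT sample. Among all genes tested, 23.1% passed as lower and 28.5% had every KO sample below every WT sample. Summed over the 9, WT gave 640 ± 20.0 CPM and KO 526 ± 27.2 CPM (SD over 3 samples each). *Mcm5* (chr8:75109569-75128439), a subunit of the helicase ring, was at 81.4, 88.0 and 83.3 CPM in WT and 70.3, 61.8 and 61.5 CPM in KO. KO 1 was the nearest to WT, as in most members, and the fall was 23.4% (log2 fold change -0.38, SE 0.0576, edgeR adjusted p = 0.000517). *Mcm6* (chr1:128331590-128359664), with the highest level of the group at 28.2 CPM per kb, was at 138, 142 and 142 CPM in WT and 128, 118 and 121 CPM in KO. It fell least, by 13.0% (log2 fold change -0.20, SE 0.0414, edgeR adjusted p = 0.00341). The ratio of *Mcm5* to *Mcm6* per length was 0.700 ± 0.0219 in WT and 0.616 ± 0.0250 in KO (SD, n = 3 each). This pair was chosen for its unequal falls, so its ratio is a description only. The other ring genes *Mcm2*, *Mcm3*, *Mcm4* and *Mcm7* fell by 19.9%, 14.7%, 18.8% and 20.8%. *Cdc6* and *Cdt1*, the loaders of the helicase, fell by 19.8% and 14.6%, and *Gmnn*, the geminin gene whose product inhibits Cdt1, by 15.8%. Genes of the origin recognition complex are not among the members and are counted with the other replication genes below. Of these, *Orc1*, *Orc2*, *Orc4*, *Orc5* and *Orc6* had estimates lower by 5.73% to 12.1%, and that of *Orc3* was not lower.

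The 4 genes of the fork clamp and of nucleotide supply fell as well, with a median log2 fold change of -0.23. By the same test 23.1% of all genes were lower. *Tyms* (chr5:30058202-30073617), the thymidylate synthase gene, was at 48.8, 48.6 and 47.5 CPM in WT and 41.3, 37.4 and 37.3 CPM in KO, a fall of 20.0% (log2 fold change -0.32, SE 0.047, edgeR adjusted p = 0.000445). *Pcna* (chr2:132249162-132253314), the sliding clamp of DNA polymerases, had the highest level of the 4 at 45.3 CPM per kb. It was at 113, 116 and 114 CPM in WT and 105, 104 and 101 CPM in KO and fell least, by 9.39% (log2 fold change -0.14, SE 0.036, edgeR adjusted p = 0.0101), a call lost in 2 of 14 other settings. The ribonucleotide reductase genes *Rrm1* and *Rrm2*, for the large subunit and the subunit tied to S phase, fell by 11.0% and 17.8%, the former not passing in 1 of the other settings. Processed copies with names of their own had few counts, 160 to 200 per sample for *Pcna-ps2* and 3 to 7 for *Tyms-ps*, but reads shared between a gene and such a copy cannot be assigned with certainty.

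Of the cyclins of S phase and mitosis and their kinase, 3 of 4 fell, against 23.1% of all genes tested. *Ccnb1* (chr13:100778650-100786570), the main mitotic cyclin, was at 59.2, 65.0 and 60.7 CPM in WT and 52.0, 47.7 and 48.0 CPM in KO. The groups did not overlap and the fall was 20.2% (log2 fold change -0.33, SE 0.0499, edgeR adjusted p = 0.000599). *Ccna2* (chr3:36564865-36572150), which acts in S phase and G2, was at 137, 142 and 138 CPM in WT and 131, 124 and 124 CPM in KO, a smaller fall of 9.12% (log2 fold change -0.14, SE 0.0394, edgeR adjusted p = 0.018) that did not pass in 5 of 14 other settings. *Cdk1* fell by 11.4%, a call lost in 1 of the 14. *Ccnb2*, the highest of the 4 at 33.0 CPM per kb, was at 49.8, 54.8 and 52.4 CPM in WT and 49.1, 47.4 and 49.8 CPM in KO, which touched at 49.8, and did not pass (edgeR adjusted p = 0.0953).

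Among the mitotic kinases, the checkpoint and the APC/C, 6 of 7 genes fell, against 23.1% of all genes tested. The median log2 fold change over the 7 was -0.28. *Aurka* (chr2:172356190-172370535), the Aurora kinase of the spindle poles, was at 33.4, 34.4 and 34.6 CPM in WT and 27.1, 25.5 and 26.2 CPM in KO. The spread within each group was small and the fall was 23.0% (log2 fold change -0.38, SE 0.0435, edgeR adjusted p = 9.88e-05). *Cdc20* (chr4:118432901-118437352), the activator of the APC/C in mitosis, had the highest level here at 22.5 CPM per kb. Its samples were at 45.0, 50.8 and 45.8 CPM in WT and 39.0, 36.1 and 35.1 CPM in KO, a fall of 22.1% (log2 fold change -0.36, SE 0.0582, edgeR adjusted p = 0.000816). The Polo kinase gene *Plk1* fell by 20.2%, the checkpoint genes *Bub1* and *Bub1b* by 17.2% and 17.8%, and *Birc5*, the survivin gene of the chromosomal passenger complex, by 15.9%. *Aurkb*, the kinase of that same complex, was at 44.4, 49.0 and 47.9 CPM in WT and 45.9, 42.8 and 43.2 CPM in KO, which overlapped, and did not pass (log2 fold change -0.10, SE 0.0486, edgeR adjusted p = 0.124).

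The spindle, kinetochore and mitotic chromosome genes held 6 falls in 10, against 23.1% of all genes tested. *Tpx2* (chr2:152847964-152895321), which activates Aurora A on the spindle, was at 125, 130 and 128 CPM in WT and 110, 101 and 101 CPM in KO and fell most, by 18.6% (log2 fold change -0.30, SE 0.0449, edgeR adjusted p = 0.000544). *Nusap1* (chr2:119618298-119651244), a spindle microtubule protein gene, was at 105, 107 and 104 CPM in WT and 95.7, 88.3 and 90.0 CPM in KO, a fall of 13.2% (log2 fold change -0.20, SE 0.0406, edgeR adjusted p = 0.00285). Both were lower in each KO sample than in any WT sample. *Top2a*, the topoisomerase that untangles mitotic chromosomes, fell by 13.2% (not passing in 2 of 14 other settings), the spindle motor *Kif11* by 13.9%, and the centromere genes *Cenpa* and *Cenpe* by 16.9% and 16.0%. *Mki67* (chr7:135689784-135716361), the proliferation marker that coats mitotic chromosomes, had the highest level of the 10 at 33.6 CPM per kb. It was at 345, 355 and 354 CPM in WT and 346, 308 and 321 CPM in KO. KO 1 lay within the WT range, and the gene did not pass (log2 fold change -0.11, SE 0.0522, edgeR adjusted p = 0.112). *Cenpf*, *Kif23* and *Kif20a* did not pass either, with log2 fold changes of -0.12, -0.10 and -0.19 and edgeR adjusted p of 0.0567 and 0.125 for the first pair and a value just above the threshold for *Kif20a*. Under the 14 other settings, *Kif20a* passed as lower in 6, *Cenpf* in 3, and *Kif23* and *Mki67* in 2 each.

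**Figure D3:**
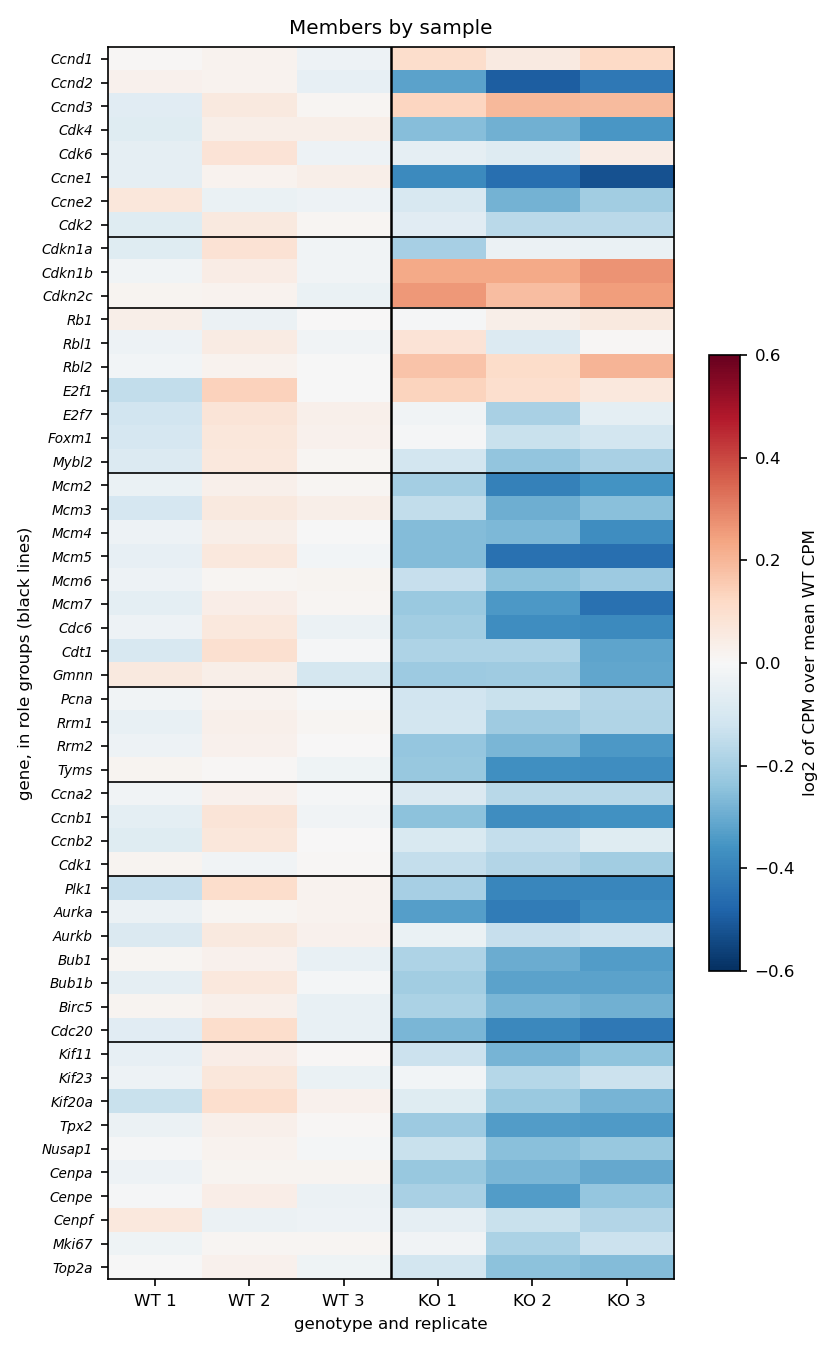
Level of each of the 52 members (y axis, in role groups divided by black lines) in each of the 6 samples (x axis), as log2 of its CPM over the mean CPM of the 3 WT samples. Blue fills most of the KO columns and is palest in KO 1, while *Ccnd1*, *Ccnd3*, *Cdkn1b*, *Cdkn2c*, *Rbl2* and *E2f1* are red in all 3 KO samples.

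Samples of one genotype had an order that most members shared. WT 2 had the highest WT level in 40 of the 52 members and WT 1 the lowest in 35, and KO 1 had the highest KO level in 42, among them 32 of the 34 that fell. The count of falls depended on the KO samples. It was 38 without KO 1, 30 without KO 2 and 26 without KO 3, and without 1 WT sample it lay between 31 and 36. Under all 14 other settings together 24 members passed as lower and 2 as higher.

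Other genes of the same processes, from lists that hold no member, also held many falls. The lists were chosen with earlier results of these data known and use the same 6 samples, so they give no independent support. At an adjusted p under 0.05, 23.1% of all genes tested were lower in KO and 21.9% higher. Of 45 other replication genes, 32 fell and 0 rose by the same test (33 and 0 at an unadjusted p under 0.05; DESeq2 and limma-voom also gave 0 rises), with a median log2 fold change of -0.19. The largest were *Gins1*, a part of the active helicase (15.4, 14.8 and 15.7 CPM in WT against 11.9, 10.7 and 11.2 CPM in KO), *Uhrf1*, which helps to copy DNA methylation at the fork (127, 132 and 127 against 106, 87.0 and 93.3 CPM), and *Dbf4*, the activator of the kinase Cdc7 (41.7, 42.5 and 42.1 against 34.9, 32.2 and 33.2 CPM). None of these 3 had overlapping groups. Of 66 other mitosis genes, 45 fell and 1 rose, with a median of -0.18. *Ttk*, the checkpoint kinase Mps1, fell by 24.8%, *Cks2*, a Cdk subunit, by 21.3%, and *Kif2c*, a motor that takes microtubules apart, by 20.8%. The 1 rise was *Pttg1*, the securin gene, at 12.9, 13.4 and 13.8 CPM in WT and 15.7, 16.7 and 16.4 CPM in KO (log2 fold change 0.28, SE 0.0565, edgeR adjusted p = 0.00281). These 2 counts moved with the samples and the scaling: the replication count was 14 without KO 3, 20 without KO 2 and 13 with upper-quartile factors, and the mitosis count 25 without KO 3 and 22 with upper-quartile factors.

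At an adjusted p under 0.05, 23.1% of all genes tested fell in KO and 21.9% rose. Other G1 control genes were more mixed than the replication and mitosis lists, with 12 falls and 3 rises in 27 and a median of -0.08. Upper-quartile factors gave 9 falls, 5 rises and a median of -0.0149, and library size only 15, 2 and -0.15. *Skp2*, the ligase subunit that marks p27 for destruction, was at 68.6, 68.4 and 68.9 CPM in WT and 53.5, 47.6 and 48.6 CPM in KO, a fall of 27.3% (log2 fold change -0.46, SE 0.0476, edgeR adjusted p = 4.78e-05). *Cdkn2b*, which encodes the inhibitor p15, fell by 59.0%, past 1.5-fold, from 1.33 to 1.44 CPM in WT to 0.504 to 0.608 CPM in KO, and the antiproliferative gene *Btg1* fell by 27.2%. The rises were *Cdkn2d*, which encodes the inhibitor p19, *E2f6*, a repressor, and *Tfdp2*, a partner of E2F factors, by 27.8%, 28.4% and 14.3%. Of 14 genes known as targets of p53, to which *Cdkn1a* also belongs, 4 rose and 4 fell. No departure from the shares of all genes is claimed for this list. *Ccng1*, the cyclin G gene, rose by 76.0% (208, 183 and 203 CPM in WT against 307, 367 and 373 CPM in KO), while *Pmaip1*, the gene of the death factor Noxa, and *Sesn2*, a stress-induced sestrin, fell by 64.5% and 59.1%.

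**Figure D4:**
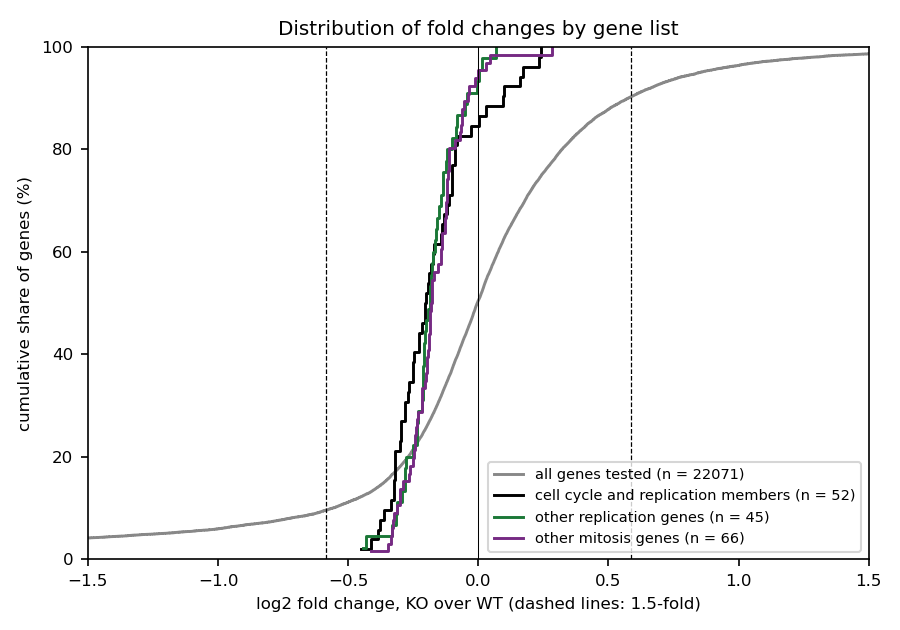
Cumulative share of genes (y axis, in %) by log2 fold change of KO over WT (x axis, cropped at 1.5 either way) for all 22071 genes tested, the 52 members, the 45 other replication genes and the 66 other mitosis genes. The 3 lists rise steeply below 0, around medians of -0.20, -0.19 and -0.18, and stay inside the dashed lines at 1.5-fold, whereas the curve of all genes is broad and crosses its middle near 0.

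Members that fell carried each kind of promoter letters described above. Of the 28 members with CCAAT in a window, 20 fell, 3 rose and 5 did not pass. The CHR letters were in 14 members, of which 9 fell, 1 rose and 4 did not pass, and the E2F letters in 8 members, of which 7 fell and 0 rose. Of the 41 members with any promoter in the table, 28 fell, 4 rose and 9 did not pass. The 4 rises are too few to compare the letters between members that rose and members that fell. Among all genes tested, 23.1% were lower in KO at this threshold and 21.9% higher.

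Markers of several other cell types differed between the genotypes by larger factors than the members did. The summed level of 6 basal keratinocyte markers, the dividing layer of the epidermis, was 1665 to 1967 CPM in WT and 378 to 468 CPM in KO, with all 6 lower in KO. For 6 suprabasal keratinocyte markers the sum was 15075 to 23147 CPM in WT and 315 to 502 CPM in KO, again with all 6 lower, and *Krt77* was near 0 in KO (0.203 to 0.577 CPM). The sum of 6 erythroid markers was 1422 to 1732 CPM in WT and 208 to 235 CPM in KO, with 5 of 6 lower and *Klf1* low in all samples (0.557 to 0.871 CPM). The 6 cartilage markers summed to 367 to 469 CPM in WT and 318 to 323 CPM in KO, with 4 lower and 2 higher. In the other direction, 7 myofibre markers summed to 16283 to 18448 CPM in WT and 35439 to 42771 CPM in KO, with 6 of 7 higher. Of these defining genes of the labelled tissue, *Tnnc2* was near 0 in all samples (0.592 to 1.42 CPM). Exon overlaps were looked up for the members only, so a part of read counting in this low value was not tested. Markers of macrophages (5 of 5), fibroblasts (5 of 5), endothelium (4 of 4) and glia (4 of 4) were higher in every KO sample than in any WT sample, with sums of 187 to 201 against 304 to 330, 28236 to 31224 against 34380 to 35516, 568 to 595 against 663 to 697, and 68.2 to 72.1 against 95.9 to 116 CPM. Among all genes tested, 27.3% lay wholly above in KO and 28.5% wholly below. Myogenic progenitor markers summed to 142 to 152 CPM in WT and 129 to 138 CPM in KO, and of these 6 *Myod1* and *Msc* passed as lower and the other 4 did not pass. The 3 myogenic differentiation markers summed to 235 to 248 CPM in WT and 224 to 238 CPM in KO, with *Myog* and *Mymx* passing as lower and *Mymk* as higher. The 4 myeloid progenitor markers summed to 1.33 to 1.96 CPM in WT and 1.98 to 2.18 CPM in KO, with *Mpo* and *Elane* called higher in KO, *Ctsg* passing as lower and *Prtn3* not passing. The 2 calls rest on few reads, with 10 to 23 counts in WT and 54 to 76 in KO for *Mpo*, and 5 to 11 and 15 to 24 for *Elane*. WT 2, highest in most members among the WT samples, was also highest in both keratinocyte sums and in the erythroid and myogenic progenitor sums. The same held for the myogenic differentiation, fibroblast, glia and myeloid progenitor sums. WT 2 was lowest in the cartilage and myofibre sums and in the middle for macrophages and endothelium. KO 1, highest in most members among the KO samples, was the highest in the basal keratinocyte, macrophage, fibroblast and cartilage sums. KO 1 was the lowest in the suprabasal keratinocyte, erythroid, myofibre, endothelium and glia sums. It was also the lowest in the myogenic progenitor, myogenic differentiation and myeloid progenitor sums. The part of these cells in the levels of the 52 members was not tested.

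**Figure D5:**
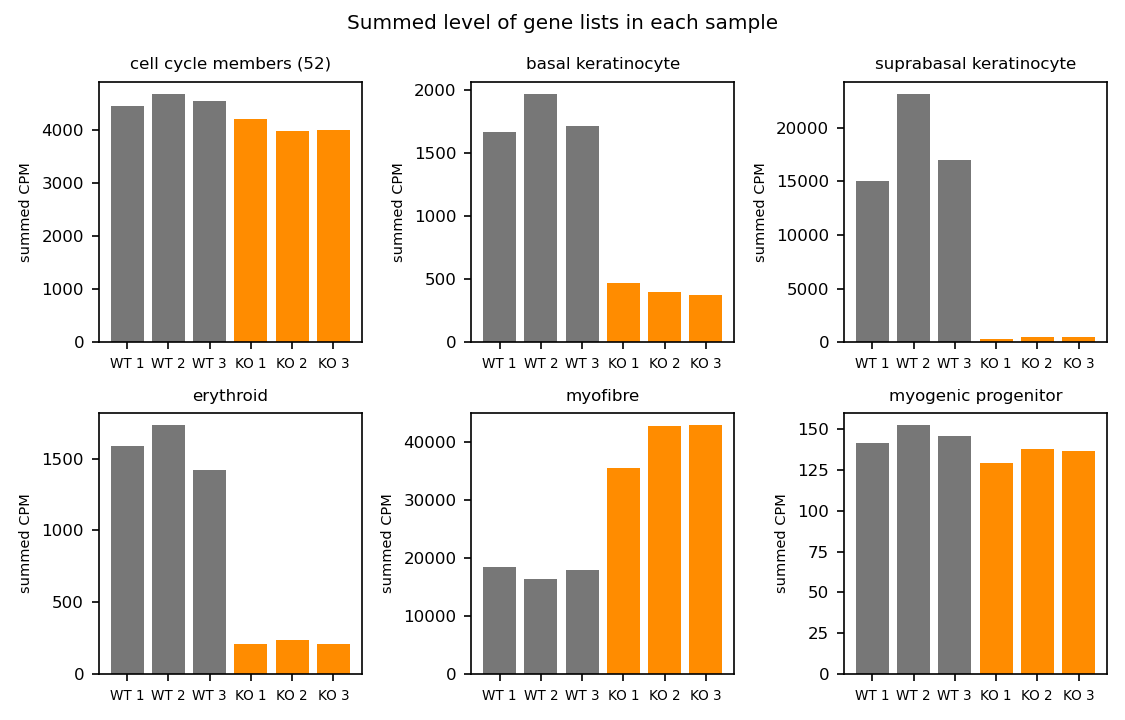
Summed CPM (y axes, each from 0 on its own scale) of the 52 members and of 5 lists of cell type markers in each of the 6 samples (x axes), with WT in grey and KO in orange. The sum of the members is lower in KO by a ratio of 0.890, the keratinocyte and erythroid sums are lower by much more, the myofibre sum is higher, and the sum of myogenic progenitor markers is lower by a ratio of 0.919.

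Counting can touch single members. The strand setting and the gene annotation behind the counts are not given in the sources used here, and 19 members share exon bases with another gene in GENCODE M21, up to 1271 bases for *Kif20a* with *Cdc23*. Reads there could have been given to either gene or to none. Of the 34 members that fell, 24 share no exon bases with another gene and 10 do. Named processed copies had 87 to 140 counts per sample for *Ccnb1-ps*, 214 to 281 for *Ccnb2-ps* and 14 to 25 for *Ccnd3-ps*.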

How the data were processed

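Total RNA of leg muscle from 3 WT and 3 KO fetuses was sequenced from both ends. According to the methods text and the submitters' processing notes, the authors trimmed reads with Trim Galore 0.6.6, mapped them to mm10 with HISAT2 2.2.1 and counted them per gene with featureCounts 2.0.1. What they deposited are raw counts for each gene, without normalization. The series table and the tables per sample differed in 0 values. Of 56262 gene IDs, 55227 were found in GENCODE M21, which gave symbols, positions and exon lengths. The depth was 82054811 to 102233181 counts per sample.

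KO was compared with WT over all genes with edgeR 4.0.16 in R 4.3.3 (filterByExpr, TMM factors, quasi-likelihood F-test on genotype, Benjamini-Hochberg adjustment over 22071 genes). The biological coefficient of variation was 7.68%. Genes were called at an adjusted p under 0.05, alone or with a fold change over 1.5, and the standard error is the size of the log2 fold change over the root of F. An exact two-sided permutation test was run on 7 quantities, the ratios and the D-type cyclin shares. Each gave a permutation p of 0.1, the smallest value that 3 against 3 samples allow. The test could therefore not pass at 0.05, and no conclusion is drawn from it. The members and all lists were chosen with earlier results of these data known. Named by rule are, in each role, the member with the highest level per length and the largest rise and fall among those that passed, and in each other list up to 3 of the largest changes without overlap. Other members were named with values after these were seen. No label ties a replicate number to a litter, and same-numbered samples deviated from their group means with correlations of -0.20, -0.13 and 0.05, so samples were not paired.

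The alternatives were RLE, upper-quartile and library size scaling, DESeq2 1.42.0, limma-voom 3.58.1, no filter, a minimum of 10 counts in each sample, a replicate block, a fold change over 2 and leaving out each sample in turn. The scripts were tested on simulated data. Promoters were taken from a RefSeq table of GRCm38.p6.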

Additional observations from a re-analysis of the deposited data

How the results depend on the processing

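The calls of members kept their direction under the alternatives, with the exceptions named here. No member passed 1.5-fold under any setting. The 34 members lower in KO became 24 with upper-quartile factors and 41 with library size only, 34 with DESeq2 and with limma-voom, and 26 to 38 when 1 sample was left out. The 4 higher members became 6 with upper-quartile factors, 2 with library size only, and 3 to 5 when 1 sample was left out. With a replicate block, a pairing by number that the labels do not state, 33 members were lower and 4 higher, and the other lists gave 27 lower replication, 39 lower mitosis and 10 lower G1 control genes. Upper-quartile factors moved the median log2 fold change of all genes by 0.068 and library size only by -0.069. Under the former, the medians were -0.13 for the members, -0.12 for other replication genes, -0.11 for other mitosis genes, -0.0149 for other G1 control genes and 0.0842 for p53 targets, with 13 replication and 22 mitosis genes lower and 1 replication gene and 5 G1 control genes higher. Under the latter, the medians were -0.27, -0.26, -0.25, -0.15 and, reversed, -0.0521. At least 10 counts in every sample tested 1 gene fewer in the G1 control list and in the p53 list, whose medians were then -0.11 and -0.00355. Leaving out 1 sample gave 14 to 34 lower replication genes, 25 to 46 lower mitosis genes, a G1 control median of -0.10 to -0.0684 and 1 to 3 p53 targets called higher (1 without WT 2). With all samples, 0 p53 targets were called higher at a fold change over 2. The sign of 3 members that did not pass turned. *Cdk6* was at 0.0422 with upper-quartile factors and at -0.0562 to 0.0144 when 1 sample was left out (positive without WT 2), *Rb1* at -0.0406 with library size only, and *Rbl1* at -0.0644 with library size only and at -0.0328 to 0.0440 when 1 sample was left out (negative without WT 1, WT 3 or KO 1). Beyond a smaller set of genes or samples, the cause of these moves was not tested. The members had at least 967 counts in every sample, and the effect of depth or of the number of samples on the calls was not tested. In all, 21 members had a call that changed under some setting. Some members without a call gained one: *Kif20a* in 6 of the 14 settings and *Cenpf* in 3. *Aurkb*, *Ccnb2*, *E2f1*, *Kif23* and *Mki67* gained one in 2 settings each, and *Ccnd1* and *Cdkn1a* in 1 each.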
